A study of Mus musculus with 6 samples.

Results

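Transcripts of the urea cycle and of ammonia entry were examined in RNA-seq data from mouse liver tumors. The genes were chosen by symbol, as Cps1, Otc, Ass1, Asl, Arg1, Nags, Gls2 and Glud1, and each of these 8 was found among the 30236 genes of the deposited table. RNA came from 3 tumors of WT mice and 3 tumors of Top1mt-KO (Top1mt-/-) mice, which lack the mitochondrial type IB topoisomerase. All were male littermates on the C57BL/6 background, and both genotypes had received diethylnitrosamine (DEN), a liver mutagen, at day 14. Carbon tetrachloride (CCl4), which injures hepatocytes, followed from 8 weeks of age for 14 weeks, and tumors of matched size were taken at 22 weeks. The knockout line was kept by breeding heterozygotes, with no Cre driver named, and non-tumor liver was not analysed here, so the values compare tumors with tumors only. The comparison asks whether the transcripts for nitrogen disposal differed between tumors with and without Top1mt.

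The urea cycle turns ammonia into urea and is carried in full mainly by hepatocytes. Glutaminase and glutamate dehydrogenase release ammonia inside mitochondria, where carbamoyl phosphate synthetase takes it up. Ornithine transcarbamylase then makes citrulline there, and the remaining steps run in the cytosol. In normal liver the cycle is strongest in periportal hepatocytes, while pericentral hepatocytes hold glutamine synthetase, which captures ammonia that escaped the cycle. Several of these enzymes are known to vary in liver cancer.

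Expression is given throughout on the log2 scale of the deposited table, and no correction for gene length is named in the sources used here. The table holds no read totals, and sequencing depth is therefore unknown. Top1mt itself had log2 values of 7.71, 5.99 and 8.01 in the WT libraries and of 5.58, 6.41 and 6.32 in the KO libraries, so the library labelled WT replicate 2 lay below those labelled KO replicates 2 and 3, against its label, and every direction below rests on the labels. In the library labelled KO replicate 1, the transcript Gm42418 reached 22.0 against 11.7 to 15.8 in the others. The hepatocyte markers were present throughout, with Alb, serum albumin, between 20.3 and 21.1, and 9 of 10 listed markers in the table. Their mean log2 value ran from 16.7 to 17.3 in WT and from 16.6 to 17.4 in KO. In such bulk samples, fewer cells of a type and less RNA per cell cannot be told apart.

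Promoter sequence was matched by symbol for 4 of the 8 genes (Otc, Ass1, Nags and Glud1) in a RefSeq table on GRCm38.p6. It is shown for 3 of them, chosen by the expression values given below. Otc and Ass1 had the highest correlation of any pair of the genes across libraries, and Glud1 varied most. Each sequence runs 5′ to 3′ on the plus strand and stops before the first annotated base of the gene. Capitals mark the letters GGGCGG, the core of the Sp1 motif, on either strand. The intervals are chrX:10252055-10252304 for Otc, chr2:31470020-31470206 for Ass1 and chr14:34310477-34310726 for Glud1.
Otc: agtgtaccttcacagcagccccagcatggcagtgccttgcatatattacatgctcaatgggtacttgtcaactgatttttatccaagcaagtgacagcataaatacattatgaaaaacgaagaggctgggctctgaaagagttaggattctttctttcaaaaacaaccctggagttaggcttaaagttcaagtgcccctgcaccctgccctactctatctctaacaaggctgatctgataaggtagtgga
Ass1: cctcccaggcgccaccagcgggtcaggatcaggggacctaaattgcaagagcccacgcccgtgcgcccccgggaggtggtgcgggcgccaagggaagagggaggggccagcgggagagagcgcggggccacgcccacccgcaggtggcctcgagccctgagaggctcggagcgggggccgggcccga
Glud1: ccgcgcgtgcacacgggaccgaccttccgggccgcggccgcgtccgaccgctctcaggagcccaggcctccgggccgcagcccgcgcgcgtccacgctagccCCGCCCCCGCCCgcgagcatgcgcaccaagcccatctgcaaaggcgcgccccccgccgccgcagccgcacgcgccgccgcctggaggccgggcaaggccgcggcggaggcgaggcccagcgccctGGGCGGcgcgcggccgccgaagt
Over the 250 bases before the RefSeq start, G and C made up 43.6% for Otc, 75.6% for Ass1 and 82.0% for Glud1, against a median of 52.4% over 32851 promoters of that length. CpG dinucleotides numbered 1, 23 and 46 in the same order. The Sp1 core occurred 0, 1 and 3 times, where the single match of Ass1 lies closer to the start than the stretch shown, and 32.7% of all promoters held it. For Nags, not shown, the same window held 55.6% G and C, 11 CpG dinucleotides and 2 Sp1 cores. Other motifs searched on both strands were TATAAA (held by 12.4% of promoters), CCAAT (33.8%), the C/EBP pattern TTNNGCAA (9.56%) and the HNF4 pattern CAAAGTCCA (0.384%). None of these other motifs was found in the windows of Otc, Ass1, Nags or Glud1, which says nothing on whether the factors bind there.

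Of the 8 genes, 0 had an adjusted p under 0.05 in limma between Top1mt-KO and WT, as for 0% of the 22677 genes tested. At an unadjusted p under 0.05 there were again 0, against 4.34% of all genes tested (1.79% higher and 2.56% lower in KO). The groups overlapped for each of the 8 genes, while they did not overlap for 8.28% of all genes tested (3.95% higher and 4.33% lower in KO). The mean was lower in KO for 5 of the 8 genes, against 52.3% of all genes tested, and higher for 3, against 47.7%, and the median log2 fold change was -0.08, against -0.02 over all genes tested. All 8 passed the filter on low values. The plot of each library's values shows the overlap for every enzyme.

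**Figure D1:**
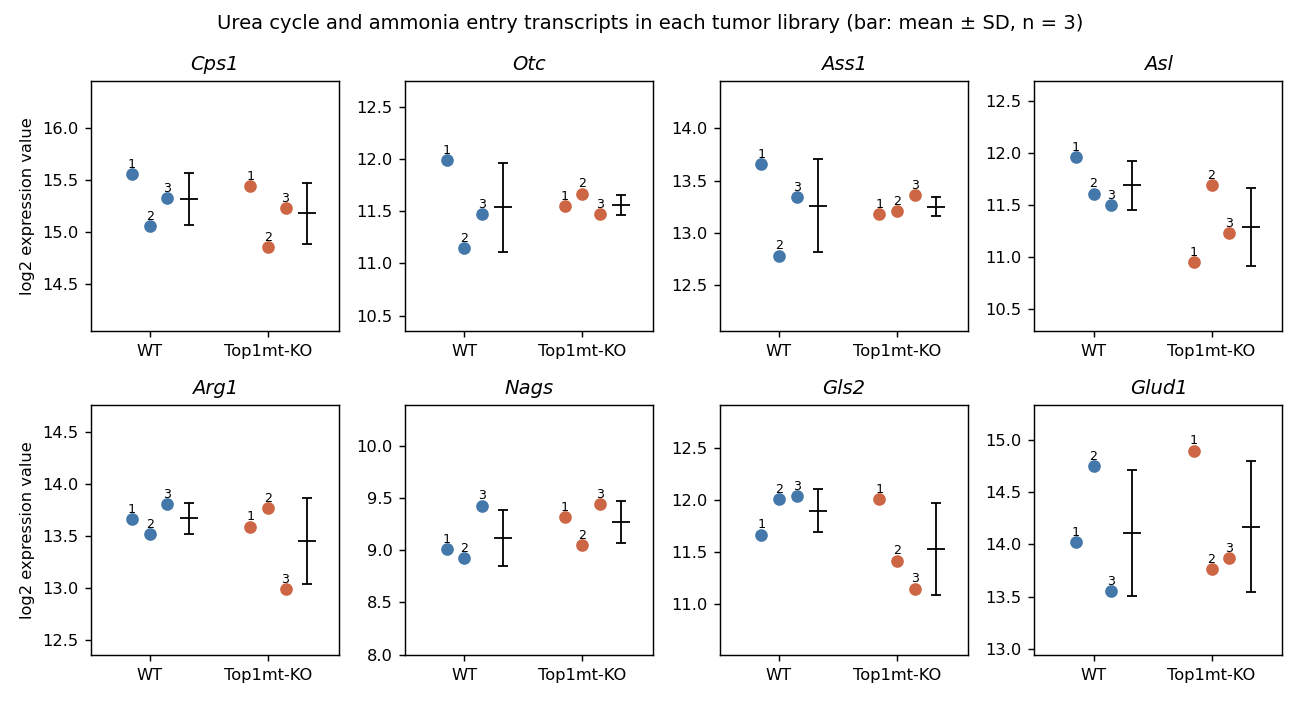
Log2 expression value (vertical axis, each panel spanning the same number of log2 units) of the 8 genes in 3 WT and 3 Top1mt-KO tumor libraries, with points numbered by replicate and bars giving mean ± SD. The 2 groups overlap in every panel, and Glud1 shows the widest spread, from 13.55 to 14.90.

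The enzymes that deliver ammonia were examined first. Glud1 (chromosome 14, 34310727 to 34345265, GRCm38) encodes glutamate dehydrogenase, which releases ammonia from glutamate. In order of replicate number, here and for the genes that follow, its log2 values were 14.02, 14.75 and 13.55 in WT tumors and 14.90, 13.76 and 13.87 in KO tumors. A single library of each genotype, WT replicate 2 and KO replicate 1, stood high, and the other 4 lay together. WT averaged 14.11 ± 0.60 (SD, n = 3) and KO averaged 14.17 ± 0.63 (SD, n = 3), with a log2 fold change of 0.07 and a 95% interval from -0.88 to 1.02. Between the lowest and the highest library Glud1 differed 2.54-fold, the widest range of the 8 genes. The pooled SD within genotypes was 0.62, larger than for 94.8% of the 7005 genes tested with a mean log2 value of at least 8. The annotation also lists Glud-ps, a pseudogene related to Glud1, which was not analysed here and with which reads could be shared.

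Gls2, the liver-type glutaminase that releases ammonia from glutamine, lies on chromosome 10 (128194457 to 128210004). Its log2 values were 11.67, 12.01 and 12.04 in WT and 12.01, 11.42 and 11.15 in KO. KO replicates 2 and 3 lay below every WT library, and KO replicate 1 lay among them. The means were 11.90 ± 0.21 (SD, n = 3) and 11.53 ± 0.44 (SD, n = 3), a log2 fold change of -0.38 with an interval from -0.92 to 0.17. Without KO replicate 1 the log2 fold change was -0.62, the groups did not overlap, as for 21.5% of all genes tested in that fit, and the unadjusted p from limma was 0.0109 (limma's adjusted p = 0.615).

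Nags (chromosome 11, 102145513 to 102149477) encodes N-acetylglutamate synthase, whose product is the obligatory activator of carbamoyl phosphate synthetase. It had log2 values of 9.01, 8.92 and 9.43 in WT and of 9.32, 9.05 and 9.45 in KO. The third replicate was the highest in each genotype, and the groups interleaved. Its log2 fold change was 0.15 with the narrowest interval of the 8 genes, from -0.27 to 0.57. Without WT replicate 3 it was 0.30 and the groups did not overlap, as for 17.4% of all genes tested in that fit (unadjusted p = 0.13 and adjusted p = 0.997 by limma).

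Cps1 (chromosome 1, 67123026 to 67231259) encodes carbamoyl phosphate synthetase, the entry and rate-controlling enzyme of the cycle and a very abundant protein of liver mitochondria. Its log2 values were 15.56, 15.06 and 15.33 in WT and 15.44, 14.86 and 15.23 in KO. The second replicate was the lowest in each genotype. WT averaged 15.32 ± 0.25 (SD, n = 3) and KO averaged 15.18 ± 0.29 (SD, n = 3), a KO to WT ratio of 0.907, with a 95% interval from 0.545 to 1.51. Of the genes tested, 99.85% had a lower mean log2 value, a ranking that is not corrected for length.

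The next enzymes form and join the intermediates of the cycle. Otc (chromosome X, 10252305 to 10321024), the mitochondrial ornithine transcarbamylase that makes citrulline, had log2 values of 11.99, 11.15 and 11.47 in WT and of 11.55, 11.67 and 11.47 in KO. The 3 KO libraries fell inside the WT range, whose ends were WT replicates 1 and 2. KO and WT differed by a ratio of 1.02, with a 95% interval from 0.718 to 1.44. Ass1 (chromosome 2, 31470207 to 31520672), argininosuccinate synthetase, which joins citrulline to aspartate, had the same arrangement at 13.66, 12.78 and 13.34 in WT and 13.18, 13.21 and 13.36 in KO. Its ratio was 0.991, with an interval from 0.667 to 1.47. The SD in WT was 0.43 for Otc and 0.45 for Ass1, and in KO it was 0.10 and 0.09. Whether the spread itself differed between genotypes was not tested.

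Asl and Arg1 complete the cycle in the cytosol. Asl (chromosome 5, 130011258 to 130029247), argininosuccinate lyase, which releases arginine and fumarate, had log2 values of 11.96, 11.61 and 11.50 in WT and of 10.95, 11.69 and 11.23 in KO. KO replicates 1 and 3 lay below every WT library, whereas KO replicate 2 exceeded WT replicates 2 and 3. The means of 11.69 ± 0.24 (SD, n = 3) and 11.29 ± 0.37 (SD, n = 3) gave a log2 fold change of -0.40, the farthest from 0 of the 8 genes, with an interval from -0.90 to 0.10 (p = 0.3 in the exact permutation test, two-sided, whose smallest attainable p is 0.1 here). Without KO replicate 2 it was -0.60, with groups that did not overlap, as for 16.9% of all genes tested in that fit, and an unadjusted p from limma of 0.0189 (limma's adjusted p = 0.924). Arg1 (chromosome 10, 24915221 to 24927484), the liver arginase that splits arginine into urea and ornithine, had log2 values of 13.66, 13.52 and 13.81 in WT and of 13.59, 13.77 and 12.99 in KO. KO replicate 3 alone stood low. The log2 fold change of Arg1 was -0.21 and turned to 0.02 without that library. Arg2, the mitochondrial arginase of other tissues, had log2 values of 3.74, 3.61 and 3.79 in WT and of 3.55, 3.57 and 2.67 in KO. Every KO library of Arg2 lay below every WT library, with a log2 fold change of -0.45 (unadjusted p = 0.345 and adjusted p = 0.999 by limma) that was -0.15 without KO replicate 3.

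For all 8 genes limma's adjusted p was 0.999, and the exact two-sided permutation p ran from 0.3 to 1.0. A p that misses the threshold does not show equal levels. The 95% intervals leave room for KO levels as low as 0.527 of WT for Gls2, and as high as 2.02 times WT for Glud1. The median pooled SD within genotypes was 0.31 on the log2 scale for the 8 genes, against 0.21 over the genes tested with a mean of at least 8.

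**Figure D2:**
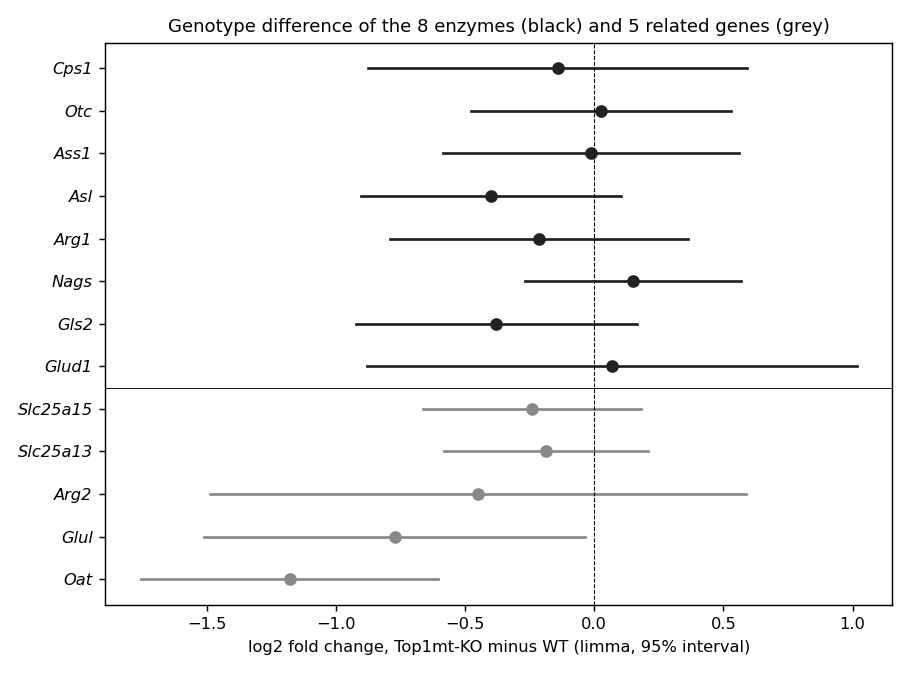
Log2 fold change (horizontal axis, Top1mt-KO minus WT) with 95% intervals from limma for the 8 enzymes in black and 5 related genes in grey. The intervals of the 8 enzymes all contain 0, while those of Glul (-0.77) and Oat (-1.18) lie below it.

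Which library was left out decided the direction for several enzymes, as the plot of differences with each library left out shows. Over the 6 fits without a single library, the log2 fold change ran from -0.27 to 0.01 for Cps1, from -0.17 to 0.25 for Otc and from -0.25 to 0.19 for Ass1. It ran from -0.37 to 0.02 for Arg1 and from -0.29 to 0.39 for Glud1, whose ends came from leaving out KO replicate 1 and WT replicate 2. It stayed below 0 for Asl (-0.60 to -0.23) and Gls2 (-0.62 to -0.19), and above 0 for Nags (0.05 to 0.30). With WT replicate 2 and KO replicate 1 both left out, Cps1 had a log2 fold change of -0.40 and Gls2 of -0.57, each with groups that did not overlap in 2 against 2 libraries. In that fit the groups did not overlap for 33.6% of all genes tested, so 2 of 8 enzymes is no more than the share over all genes.

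**Figure D3:**
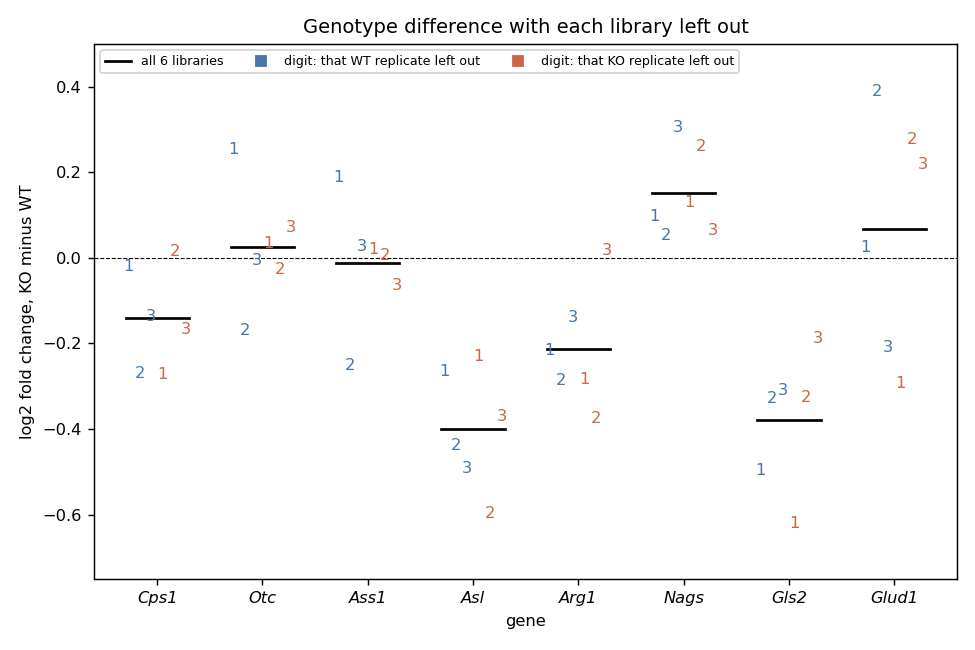
Log2 fold change (vertical axis, Top1mt-KO minus WT) of each enzyme with all 6 libraries (black line) and with a single library left out (digits give the replicate, blue for WT and orange for KO). Asl and Gls2 stay below 0 and Nags above 0 in all 6, and Glud1 runs from -0.29 to 0.39.

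Levels were compared between genes after division by exon length, taken as the union of annotated exons in GENCODE M21, which assumes that the deposited values were not already divided by length. On this log2 scale per kb, Cps1 had the highest mean at 12.77 ± 0.25 (SD over 6 libraries), followed by Arg1 at 12.40 ± 0.30, Glud1 at 12.07 ± 0.55 and Ass1 at 11.99 ± 0.29. Gls2 came next at 9.92 ± 0.37, then Otc at 9.46 ± 0.28 and Asl at 9.22 ± 0.35, and Nags was lowest at 7.69 ± 0.23. The 8 genes thus fell into a high set, a middle set and Nags alone. The step from Ass1 to Gls2 had a mean of 2.07, and the step from Asl to Nags had a mean of 1.53, and both kept their order in 6 of 6 libraries. All other neighbours exchanged places in at least 1 library. The order of Glud1 over Ass1 held in 2 of 6 libraries, which were WT replicate 2 and KO replicate 1. With the longest transcript as the length, Arg1 and Cps1, Ass1 and Glud1, and Asl and Otc exchanged ranks, and the 3 sets stayed the same. Nags, the regulator of Cps1, was thus the least abundant transcript per length, and Cps1 lay among the most abundant.

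**Figure D4:**
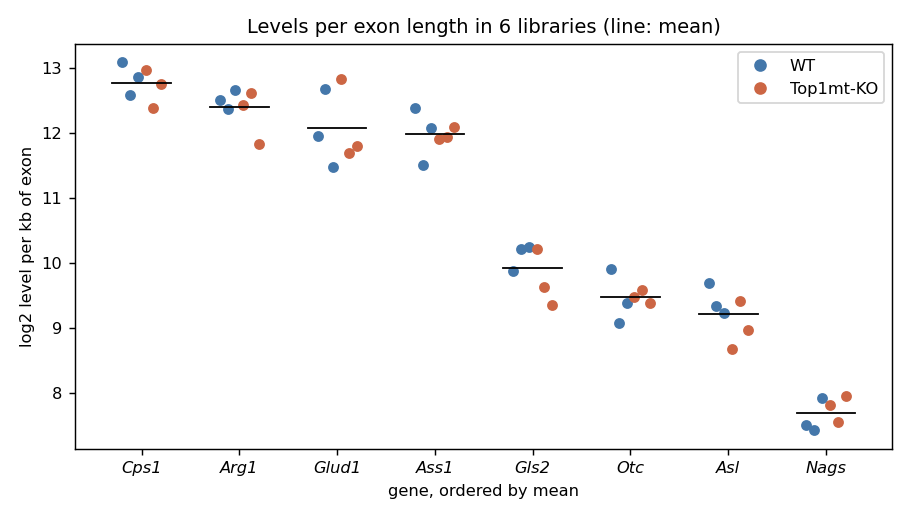
Log2 level per kb of exon (vertical axis) of the 8 genes, ordered by mean, in WT (blue) and Top1mt-KO (orange) libraries, with a line at the mean of 6 libraries. The means of Cps1, Arg1, Glud1 and Ass1 lie between 11.99 and 12.77, those of Gls2, Otc and Asl between 9.22 and 9.92, and that of Nags at 7.69.

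Correlations between the 8 transcripts across tumors had both signs. Of their 28 pairs, 14 had a positive and 14 a negative Pearson correlation over the 6 libraries, with a median of 0.007. After removal of the genotype means 15 were positive. No pair passed Benjamini-Hochberg adjustment over the 28 pairs, and 0 had an unadjusted exact p under 0.05. The highest correlation was that of Otc with Ass1 (Pearson's r = 0.882, exact permutation p = 0.0639, adjusted p = 0.879, Spearman's rho = 0.486, exact permutation p = 0.356, adjusted p = 0.953). It rested on WT replicates 1 and 2, without which r was -0.762. The lowest was that of Asl with Nags (r = -0.678, exact permutation p = 0.157, adjusted p = 0.879, rho = -0.657, exact permutation p = 0.175, adjusted p = 0.953), and it was -0.781 without the libraries farthest out in Asl, WT replicate 1 and KO replicate 1. The heat map of deviations shows 5 of the 8 genes above their own mean in WT replicate 1 and 6 of 8 below it in KO replicate 3. These were the libraries with the highest and the lowest average. Most genes also lay above their mean in KO replicate 1 and below it in WT replicate 2.

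**Figure D5:**
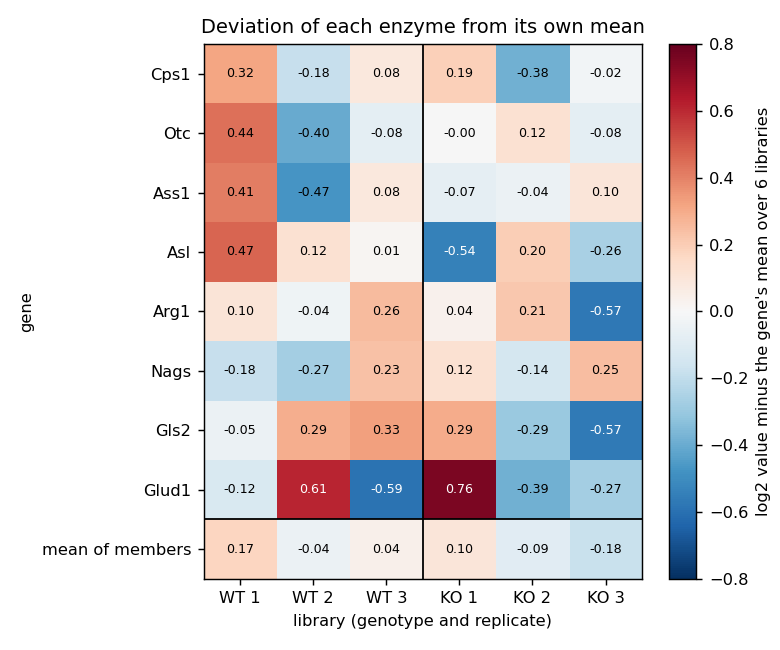
Log2 value minus the gene's mean over 6 libraries (color) for each of the 8 genes (rows) and for their average (bottom row) in each tumor library (columns). Glud1 has the strongest deviations, 0.76 in KO replicate 1 and 0.61 in WT replicate 2, where the other 7 genes lie between -0.54 and 0.29 and between -0.47 and 0.29.

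The average of the 8 centred profiles was 0.17, -0.04 and 0.04 for WT, in replicate order, and 0.10, -0.09 and -0.18 for KO. Among all other genes tested, the 5 whose values over the 6 libraries correlated best with this average were Mynn (Pearson's r = 0.992), Slc25a15 (0.986), Klf13 (0.983), AV039307 (0.981) and 4933413C19Rik (0.978). These were the highest of all genes tested, over 6 points, so no p is given. Slc25a15 encodes the mitochondrial ornithine carrier of the urea cycle. Its log2 values were 11.92, 11.59 and 11.73 in WT and 11.80, 11.49 and 11.23 in KO.

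Of the 8 genes, Glud1 had the highest correlation with the hepatocyte markers, a relation looked at after the values were seen. The mean of the 9 hepatocyte markers deviated from its overall mean by -0.17, 0.30 and -0.32 for WT, in replicate order, and by 0.44, -0.38 and 0.13 for KO. Its correlation with Glud1 was r = 0.892 (exact permutation p = 0.0208, adjusted over the 8 genes p = 0.167) and rho = 0.886 (exact permutation p = 0.0333, adjusted p = 0.267). Without KO replicates 1 and 2 it was r = 0.823. For the other 7 genes r lay between -0.651 (Asl) and 0.252 (Gls2), with adjusted exact permutation p from 0.571 to 0.963. Whether the correlations differ from each other was not tested.

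Related genes were taken from 4 lists, chosen with earlier results of these data known. A share among them may therefore reflect the choice of genes and is no test of the lists. Of 57 genes listed, 55 were tested, and 0 passed an adjusted p of 0.05 in limma. At an unadjusted p under 0.05 there were 2 higher and 5 lower in KO, or 12.7% of the 55, against 4.34% of all genes tested. Without WT replicate 2 and KO replicate 1 the count was 13 in place of 7, while the share over all genes tested was 5.96%. Over the other alternatives it ran from 5 (without trend, or without WT replicate 1) to 10 (without WT replicate 2). The 9 tested carriers and cofactors of the cycle, with a median log2 fold change of -0.19, held 0 of them. This list includes Slc25a13, the aspartate-glutamate carrier citrin, which supplies aspartate to Ass1 and had a log2 fold change of -0.19, and Slc25a15 with -0.24. The groups overlapped for both. Slc25a13 was -0.33 without KO replicate 2 and -0.04 without KO replicate 3. Slc25a15 was -0.15 without WT replicate 1, -0.39 without KO replicate 1 and -0.11 without KO replicate 3. The 16 polyamine and pyrimidine genes, which use ornithine, arginine or carbamoyl phosphate, also held 0, with a median of -0.01.

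In the list of glutamine and ammonia handling outside the cycle, 8 of 9 means were lower in KO, against 52.3% of all genes tested. Its median log2 fold change was -0.37. Among its 9 tested genes were 3 of the 5 related genes lower at an unadjusted p under 0.05, against 2.56% of all genes tested. These 3 are markers of pericentral hepatocytes, and the list was drawn up around pericentral ammonia handling. They also stand in the list of pericentral markers below, so the counts of the 2 lists are not independent. Oat, ornithine aminotransferase, which withdraws ornithine from the cycle, differed by -1.18 on the log2 scale, with every KO library below every WT library (adjusted p = 0.938 by limma). Slc1a2, a glutamate transporter, was at 8.89, 8.84 and 9.56 in WT and at 7.68, 5.56 and 7.49 in KO, without overlap (a log2 difference of -2.19 ± 0.53 SE, adjusted p = 0.968 by limma). Glul, glutamine synthetase, was at 11.99, 11.13 and 11.69 in WT and at 10.17, 11.15 and 11.17 in KO. WT replicate 2 lay below KO replicates 2 and 3, so the groups of Glul overlapped (a log2 difference of -0.77 ± 0.32 SE, adjusted p = 0.999 by limma). Without KO replicate 1 the difference of Glul was -0.44. Among all pericentral markers tested, 9 of 10 means were lower in KO and 4 genes had an unadjusted p under 0.05. These were the same 3 and Cyp2e1, a cytochrome P450 (-0.89, and -0.58 without KO replicate 1), whose groups overlapped. Over all genes tested, 52.3% of means were lower in KO and 4.34% had such a p. Among 9 periportal markers outside the 8 enzymes, 7 means were higher, against 47.7% of all genes tested, and 0 genes had such a p. Pck1, of gluconeogenesis, lay lower without overlap (-0.50). The pericentral markers averaged 9.80, 8.86 and 9.65 in WT and 8.38, 8.81 and 8.92 in KO. Their part in the values of the 8 enzymes was not tested.

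Among the 21 genes that release nitrogen from amino acids, 4 had an unadjusted p under 0.05. Gpt, alanine aminotransferase, lay between 11.84 and 11.87 in WT and between 10.97 and 11.56 in KO, without overlap (a log2 difference of -0.63 ± 0.17 SE, adjusted p = 0.999 by limma). Prodh, proline dehydrogenase, differed by -0.92, and its groups overlapped. Asns, asparagine synthetase, which consumes glutamine, and Gldc, the glycine decarboxylase, which releases ammonia, lay higher in KO without overlap, with log2 fold changes of 1.16 and 1.03. Amdhd1, an enzyme of histidine breakdown, also lay higher without overlap (0.40, or 0.23 without KO replicate 3, unadjusted p = 0.0641 by limma).

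Of 20 regulators known to act on urea cycle genes in liver, 0 passed an adjusted p of 0.05 in limma and 1 had an unadjusted p under 0.05. That is 5.0% of the list, near the 4.34% of all genes tested. This was Cebpb, a C/EBP factor, which lay lower in KO without overlap (-0.84 on the log2 scale, adjusted p = 0.938 by limma). Ppara, a nuclear receptor of fasting metabolism, lay at 12.06, 12.24 and 11.90 in WT and at 11.83, 11.84 and 11.31 in KO, also without overlap (-0.41, or -0.24 without KO replicate 3, adjusted p = 0.999 by limma). The 2 without overlap stand against 8.28% of all genes tested, and the groups overlapped for the other 18, among them Hnf4a (-0.17), Cebpa (-0.10), Gcgr, the glucagon receptor (-0.01), and Nr3c1, the glucocorticoid receptor (0.05).

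Markers of other cell types were compared beside these values. The bile duct list averaged 7.49 to 8.46 in WT and 6.81 to 7.30 in KO, without overlap. The erythroid list averaged 9.21 to 10.15 in WT and 8.59 to 9.18 in KO, without overlap but with ranges that nearly met. The means of the macrophage (8.18 to 9.53 in WT, 8.41 to 9.12 in KO), stellate cell (8.96 to 10.29 and 8.26 to 9.99), endothelial (9.75 to 10.02 and 9.88 to 10.18), lymphocyte (4.50 to 4.61 and 4.12 to 4.83) and cycling cell lists (7.83 to 8.81 and 8.26 to 8.47) overlapped. Of the 6 bile duct markers, Krt19 (-2.68) and Krt7 (-2.20) had an unadjusted p under 0.05, and Epcam (-1.19, or -0.64 without WT replicate 3 and -0.79 without KO replicate 1) lay lower without overlap. The other 3 had means slightly higher in KO, namely Sox9 (0.15), Spp1 (0.05) and Cdh1 (0.21). Of the 5 erythroid markers, the globin genes Hbb-bs (-0.82), Hba-a1 (-0.83) and Hba-a2 (-0.90) had such a p, with differences of -0.53, -0.49 and -0.59 without WT replicate 1. Hbb-bt (-0.75) and Alas2 (0.01) had no such p, and their groups overlapped. Over all genes tested, 4.34% had such a p. An unadjusted p under 0.05 was also found for the stellate cell gene Lrat (-0.79), the endothelial gene Cdh5 (0.40) and the replication gene Mcm2 (-0.52, or -0.33 without WT replicate 3). Groups did not overlap for Pecam1 (endothelial, 0.16), Cd3e (T cell, -1.03) and Ttr (hepatocyte, 0.58, or 0.38 without WT replicate 3), with larger p. Over all genes tested, 8.28% did not overlap. Cd3e had low log2 values, from 1.14 to 3.27. The groups overlapped for the T cell markers Cd3d (-0.35), Cd8a (0.34) and Cd4 (0.10). None of the listed marker genes named here passed an adjusted p of 0.05 in limma as reported (0.988 to 0.999). Krt19 passed in limma when libraries were centred on the hepatocyte markers (-2.81, adjusted p = 0.0105). That fit moved the median log2 fold change of all genes to -0.14. Lars2 passed in it too, although KO replicate 1 alone stood high among its KO libraries. The part of these markers in the values of the 8 enzymes was not tested.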

How the data were processed

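Libraries of 3 WT and 3 Top1mt-KO liver tumors were grouped by their genotype label. The authors deposited a single table of log2 values, with genes named by symbol and values from -2.24 to 22.0. The transform is not given in the sources used here. The submitters' processing notes name bcl2fastq 2.17, Trimmomatic 0.36, STAR 2.5.1, Subread, DESeq2 and GRCm38, whereas the paper's methods name BWA and Mm 8, so aligner and build are uncertain. Read counts were not used, and the depth behind each value is unknown. Because the values are log2, limma was used in place of a count test. Leftover cells of the authors' own comparisons in 3 columns without a name were not used. There were 0 columns of unmapped samples. Of the symbols, 5 occurred more than once, none of them listed here.

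The genotype effect was fitted with limma 3.58.1 in R 4.3.3 (lmFit, eBayes with trend). The lowest 25% of genes by mean were left out, and p-values were adjusted by Benjamini-Hochberg across the remaining 22677, with a threshold of 0.05. Intervals are 95% intervals of that fit. Exact permutation tests over libraries used 20 regroupings, or 720 pairings for correlations. The paper calls the tumors independent, and p-values measure the spread between them. The procedure was tested on simulated data. Exon lengths and loci came from GENCODE M21 on GRCm38 and promoters from RefSeq. Ca5a, Rhbg and Tf were not analysed here.

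Named were the 8 genes, Top1mt, every listed gene with an unadjusted p under 0.05 or without overlap of the groups, Glul, Oat, Arg2, Slc25a15 and Slc25a13 in any case (1 further gene fixed in this way is not reported here), and the 5 genes most like the average profile. Other listed genes named beside them (Hnf4a, Cebpa, Gcgr, Nr3c1, Alb, Sox9, Spp1, Cdh1, Hbb-bt, Alas2, Cd3d, Cd8a, Cd4, Gm42418, Lars2 and Gm15564) were chosen after their values were seen. The genes, lists and tests were chosen with earlier results of these data known. Alternatives were no trend, quantile normalization, centring on hepatocyte markers, no filter or a filter at the median, a replicate block, and libraries left out.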

Additional observations from a re-analysis of the deposited data

How the results depend on the processing

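Over 13 alternatives to the fit of the genotypes, none of the 8 enzymes passed an adjusted p of 0.05 by limma (smallest 0.615, 0 or 1 at an unadjusted p under 0.05), and 16 of their 104 log2 fold changes changed sign. Over all genes tested, 59 passed when each library was centred on the hepatocyte markers, which moved the median log2 fold change of all genes to -0.14, 4 without a filter on low values, and 0 to 1 with a library left out, the 1 being without KO replicate 1. Centring shifts all genes of a library by the same amount, and it left 30.8% of genes higher in KO against 47.7% as reported. Of the listed genes, 1 related nitrogen gene, Slc1a2, the bile duct marker Krt19, Lars2 and Gm15564 passed in that fit. Lars2 stood at 20.06 and Gm15564 at 16.84 in KO replicate 1, against 12.67 and 8.855 in the next highest library, WT replicate 3. Why 59 genes passed was not tested. Quantile normalization gave -0.00028 for Otc and -0.019 for Glud1, and centring gave -0.10 for Otc and -0.060 for Glud1. With WT replicate 2 and KO replicate 1 left out, Cps1 was -0.40, Otc -0.16 and the median of the 8 genes -0.24. With a single library left out, that median ran from -0.26 to 0.0019, and the log2 fold change from -0.27 to 0.015 for Cps1, -0.17 to 0.25 for Otc, -0.25 to 0.19 for Ass1, -0.37 to 0.018 for Arg1 and -0.29 to 0.39 for Glud1. Same-numbered libraries correlated at -0.123, -0.0759 and 0.052 in their deviations from the genotype means. What the numbers stand for is not stated in the sources used here. Such weak correlations cannot exclude a shared litter or run, so pairing is unknown. With a replicate block limma called 0 genes (912 by unadjusted p under 0.05, against 985), and no call changed. With the longest transcript as length, 2 of the 8 genes kept their rank. The unknown depth limits what can be said of weakly expressed genes. Of 27 other listed genes named for their p, for lack of overlap or in any case, 13 moved by over 1.5 times with a library left out. Of these 27, 0 changed sign (for regulators and markers this was chosen after seeing the data).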
